A study of Mus musculus with 6 samples.

Results

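Apolipoprotein E (Apoe), its microglial receptor Trem2 and 7 other genes of glial lipid handling were followed in ventral hippocampus, in mice that carry the label NEGR1 overexpression and in mice with the label NEGR1 control. The 9 genes, Apoe, Trem2, Tyrobp, Abca1, Abcg1, Clu, Lrp1, Soat1 and Plin2, were chosen by symbol and matched to 1 Ensembl identifier each among the 56941 identifiers of the count table. All 9 passed the filter on low counts, among 19354 genes tested. NEGR1 is an adhesion molecule on the surface of neurons, and the study raised it to look at working memory and at behaviours used as models of anxiety and depression. Poly(A) RNA was sequenced from 3 mice per group, and the 2 groups share the tissue and the library preparation. The strain, age and sex of the mice, and the promoter, vector or cell type by which NEGR1 was raised, are not stated in the labels.

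In brain, cholesterol is made locally and travels between cells on lipoprotein particles that astrocytes release, with APOE and clusterin as their main protein coats. The transporters ABCA1 and ABCG1 load these particles with cholesterol, under control of the sterol-sensing liver X receptors (LXR), and receptors such as LRP1 take them up. Microglia bind the particles through TREM2, which signals through its adaptor TYROBP, and cells that take up more sterol than they export esterify it with SOAT1 and keep it in droplets coated by PLIN2.

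Promoter windows, from 250 bases before to 50 bases after a transcription start, were available from RefSeq (build GRCm38.p6) for 6 of the 9 genes. They were searched on both strands for a pair of GGTNA half-sites with 5 bases between them, a relaxed LXR element, for GAGGAAGT, a motif of the microglial factor PU.1, and for CACGTG, the E-box within the lysosomal CLEAR element. These motifs occurred in 0.718%, 3.20% and 7.15% of the 32851 windows of that length in the table. The windows of Abca1, Apoe and Trem2 are shown because they carry the sterol exporter, the most abundant of the genes and the microglial receptor; capitals mark the matches, and none of the 3 motifs overlapped another. They lie at chr4:53159846-53160145 (minus strand), chr7:19699139-19699438 (minus strand, the outermost of 3 Apoe starts) and chr17:48346151-48346450 (plus strand).
Abca1: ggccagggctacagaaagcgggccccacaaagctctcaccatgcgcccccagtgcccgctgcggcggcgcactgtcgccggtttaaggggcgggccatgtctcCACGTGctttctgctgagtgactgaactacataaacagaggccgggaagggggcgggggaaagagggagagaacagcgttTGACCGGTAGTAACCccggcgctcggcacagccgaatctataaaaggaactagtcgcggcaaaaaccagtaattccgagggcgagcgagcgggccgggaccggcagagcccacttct
Apoe: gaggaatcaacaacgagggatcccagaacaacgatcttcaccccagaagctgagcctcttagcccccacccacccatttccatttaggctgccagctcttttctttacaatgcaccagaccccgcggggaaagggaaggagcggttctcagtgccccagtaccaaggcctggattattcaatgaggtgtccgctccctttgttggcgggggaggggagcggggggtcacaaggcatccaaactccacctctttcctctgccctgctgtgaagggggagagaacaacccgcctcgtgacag
Trem2: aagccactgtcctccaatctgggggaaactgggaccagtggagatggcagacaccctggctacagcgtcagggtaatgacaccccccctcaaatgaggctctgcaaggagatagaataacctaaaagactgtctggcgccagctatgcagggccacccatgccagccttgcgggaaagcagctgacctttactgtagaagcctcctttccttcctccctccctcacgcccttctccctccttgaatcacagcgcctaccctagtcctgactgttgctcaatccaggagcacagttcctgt
The Abca1 window held 1 match to the LXR element, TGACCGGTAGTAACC, with its first base at -67 from the start and the motif on the opposite strand, and 1 E-box at -147. Plin2 held 1 E-box at -4. The windows of Apoe (3 starts), Trem2, Lrp1 and Soat1 held no match, which says only that these letters are not in them.

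Libraries held 30726110 to 38108394 counts. Levels are given in CPM, read counts scaled by library size and TMM factor; means carry the SD of the 3 libraries of a group, and a fold divides overexpression by control. Negr1 itself stood at 193 ± 6.88 CPM (SD, n = 3) against 176 ± 7.28 CPM (SD, n = 3), a fold of 1.09 (95% interval 1.01 to 1.19). Its groups did not overlap, as for 7.07% of all genes tested on the higher side. The edgeR adjusted p was 0.488 (unadjusted p = 0.0309). A two-sided exact permutation p was 0.1, the smallest that 3 against 3 can give. The labelled overexpression thus did not pass the test at the RNA level. One library stood apart: overexpression replicate 1 held 764 CPM of summed choroid plexus markers, led by Ttr. Overexpression replicates 2 and 3 held 56.0 and 79.4 CPM, and the control libraries 32.5 to 57.0 CPM. All 10 choroid plexus markers had a fold above 1. Of them 4 had groups that did not overlap, where 7.07% of all genes tested lay apart on the higher side. Meningeal fibroblast markers leaned the same way. All 10 had a fold above 1, 4 of them with groups that did not overlap, beside the same 7.07% of all genes tested. Their sum overlapped between the groups, at 183 to 232 CPM in overexpression and 149 to 204 CPM in control libraries. Pdgfra alone made up 35.7% of this sum. The 10 neuron markers summed to 9742 to 10057 CPM in overexpression and 10098 to 10981 CPM in control libraries, and these sums did not overlap. Camk2a made up 40.6% of the sum. Taken singly, 0 of the 10 neuron markers had groups without overlap, and 3 had a fold above 1 and 7 below. The part of these markers in the values of the 9 genes was not tested. In bulk tissue, fewer cells of a type and less RNA per cell cannot be told apart.

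Of the 9 genes, 7 had a fold below 1 and 2 above, where 49.6% and 50.4% of all genes tested did. Their median on the log2 scale was -0.10, beside 0.0015 for all genes tested. In edgeR's quasi-likelihood test 0 of the 9 passed an adjusted p of 0.05, a threshold that 0.0465% of all genes tested passed. At an unadjusted p under 0.05 there were 4, Apoe, Clu, Tyrobp and Soat1, where 9.24% of all genes tested were. The 3 overexpression libraries lay wholly on one side of the 3 control libraries for 4 genes, Apoe, Clu and Abcg1 on the lower side and Soat1 on the higher side. The background shares of such genes were 15.1% in all, 8.07% on the lower side and 7.07% on the higher side. DESeq2's Wald test called 1 of the 9, Apoe, where it called 107 of all 19354 genes. With limma-voom and sample weights 0 of the 9 were called, where 6 of all 19354 genes were.

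**Figure D1:**
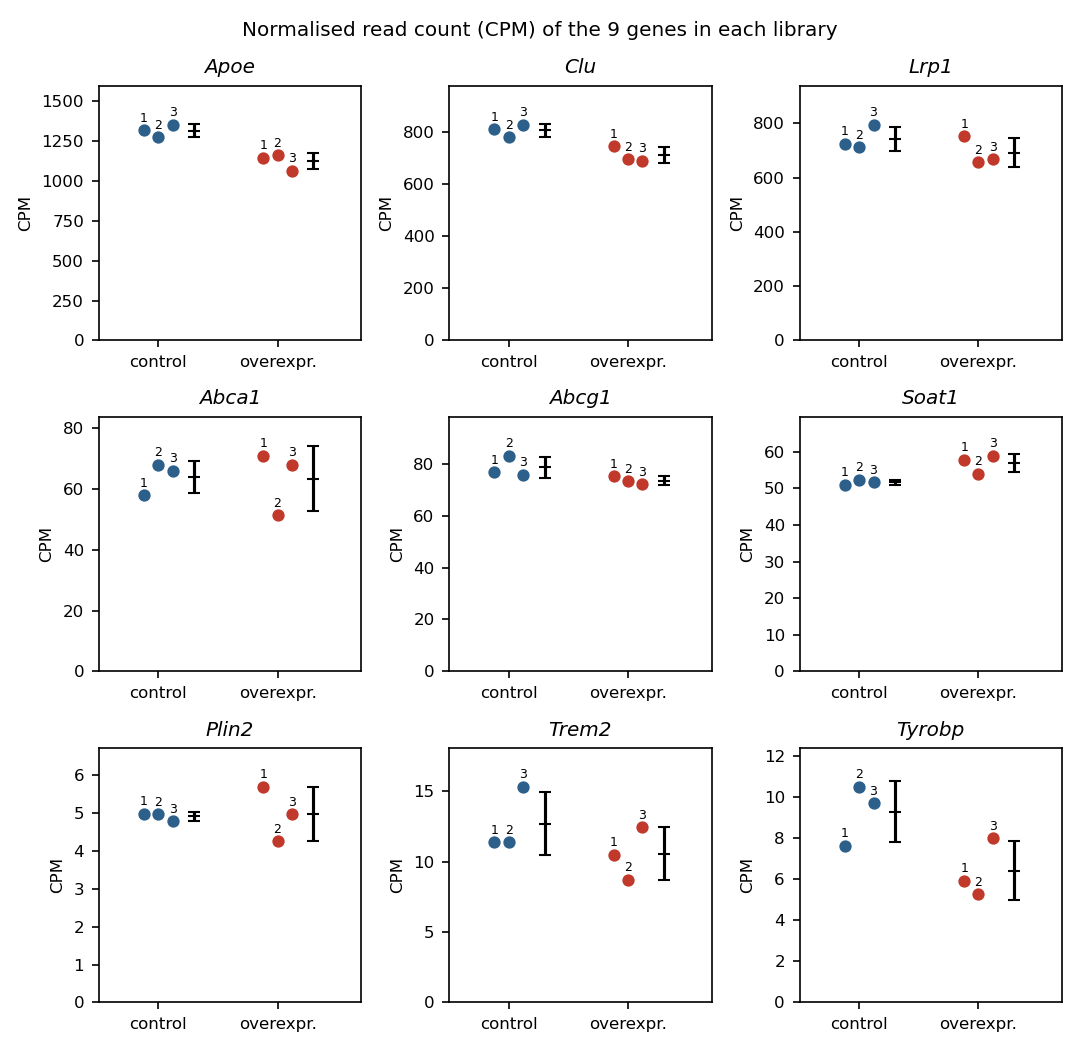
Normalised read count (CPM, linear axes from 0) of the 9 genes in the 3 control (blue) and 3 overexpression (red) libraries, with replicate numbers; black bars are mean ± SD, n = 3. Apoe lies between 1065 and 1160.0 CPM in overexpression and between 1276 and 1352 CPM in control libraries, while the groups of Trem2, Tyrobp, Abca1, Lrp1 and Plin2 overlap.

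Apoe (ENSMUSG00000002985), the main apolipoprotein of brain, was at 1145, 1160.0 and 1065 CPM in overexpression replicates 1 to 3 and at 1319.6, 1276 and 1352 CPM in control replicates 1 to 3. Every control library was above every overexpression library, with a gap of 116 CPM between the groups. The means were 1123 ± 51.2 and 1316 ± 38.4 CPM (SD, n = 3), a fold of 0.854 (95% interval 0.791 to 0.921). edgeR's adjusted p was 0.191 (unadjusted p = 5.58e-04), while DESeq2 gave an adjusted p of 0.0175 and edgeR without a filter on low counts 0.00583. Both settings called more genes in all, 107 of 19354 and 304 of 35633, against 9 of 19354 in edgeR with the filter. Leaving out each library in turn gave folds of 0.839 to 0.877 and edgeR adjusted p-values of 0.0957 to 0.576. The difference was thus larger than the spread between these libraries by their ranges, and whether it passed a test over all genes depended on the tool and the filter.

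Clu (ENSMUSG00000022037), which encodes clusterin, also named apolipoprotein J, was at 745, 694 and 688 CPM in overexpression and 809, 778 and 826 CPM in control replicates 1 to 3. As for Apoe, the groups did not overlap, and the gap was 33.0 CPM. This is a fold of 0.882 (95% interval 0.817 to 0.951) and an edgeR adjusted p of 0.335. Its fold was 0.859 to 0.896 with 1 library left out. Across these libraries the ratio of Apoe to Clu counts was 1.54, 1.67 and 1.55 in overexpression and 1.63, 1.64 and 1.64 in control replicates 1 to 3. Both genes thus stood in nearly the same proportion in the control libraries, and in overexpression the ratio lay on either side of them. Of all 36 pairs among the 9 genes, Apoe and Clu had the most alike pattern over the 6 libraries, with a root mean square distance of 0.325 between their scaled log2 CPM, and Apoe and Soat1 the least alike, at 1.80.

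Both genes are strongly expressed by astrocytes, so their levels were also set against 12 astrocyte markers in the same library. The summed markers, led by Slc1a2, overlapped between the groups, at 7165 to 7849 CPM in overexpression and 7247 to 7983 CPM in control libraries. Apoe amounted to 14.6, 16.2 and 14.1% of this sum in overexpression and to 18.2, 16.7 and 16.9% in control replicates 1 to 3. The ratio of the group means was 0.864, beside 0.854 for the Apoe level itself, and again the groups did not overlap. Against the geometric mean of the markers, in which Slc1a2 weighs no more than the others, it was 0.895, also with no overlap. For Clu these shares were 9.49, 9.69 and 9.09% against 11.2, 10.2 and 10.3%. Of the 12 astrocyte markers 4 had a fold above 1 and 8 below, with a median of -0.027 on the log2 scale. Only 1 had groups that did not overlap, on the lower side, where 8.07% of all genes tested lay apart. Gfap, a filament protein that reactive astrocytes make more of, singled out after its values were seen, was at 356 ± 39.9 against 508 ± 37.2 CPM with an edgeR adjusted p of 0.0862. Gfap passed the threshold with DESeq2 (adjusted p = 7.62e-07), without a filter on low counts, with the replicate block, and when control replicate 1 or overexpression replicate 3 was left out. It did not pass in the other refits, and after a correction for GC content its edgeR adjusted p was 0.319. All 10 oligodendrocyte markers had a fold below 1, where 49.6% of all genes tested did, and their median was -0.38 on the log2 scale. Of them 5 had groups that did not overlap, on the lower side, beside 8.07% of all genes tested. In edgeR 8 had an unadjusted p under 0.05, beside 9.24% of all genes tested, and 0 passed the threshold. Their sum, led by Mbp, was 3077 to 3631 CPM in overexpression and 3853 to 4856 CPM in control libraries, without overlap. The part of either in the Apoe and Clu values was not tested.

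**Figure D2:**
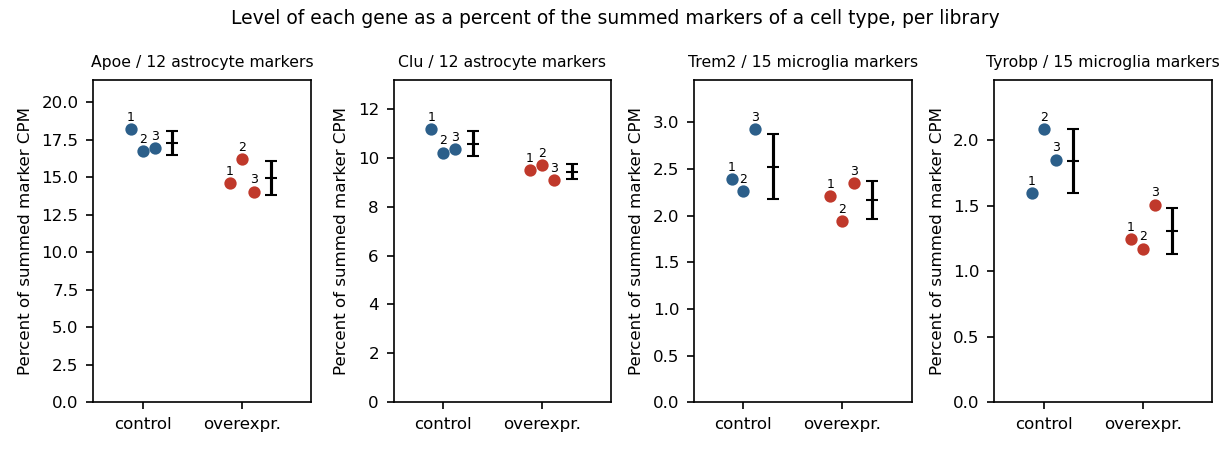
Apoe and Clu as a percent of the summed CPM of 12 astrocyte markers, and Trem2 and Tyrobp as a percent of the summed CPM of 15 microglia markers, in each control (blue) and overexpression (red) library; black bars are mean ± SD, n = 3, and axes start at 0. Apoe is at 14.1 to 16.2% in overexpression and 16.7 to 18.2% in control libraries, and the Trem2 shares of the groups overlap.

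Lrp1 (ENSMUSG00000040249), an endocytic receptor for APOE-bearing particles on neurons and glia, was at 753, 657 and 667 CPM in overexpression and at 725, 711 and 795 CPM in control replicates 1 to 3. Overexpression replicate 1 lay among the control libraries and the other 2 below them. Its fold was 0.931 with a 95% interval of 0.848 to 1.02 (edgeR adjusted p = 0.652), and 0.890 without overexpression replicate 1 (adjusted p = 0.263). Leaving out each library gave folds of 0.890 to 0.964, the highest without control replicate 3.

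The 2 cholesterol exporters differed in how much they varied between libraries. Abca1 (ENSMUSG00000015243), which loads cholesterol onto lipid-poor apolipoproteins, was at 70.8, 51.3 and 67.9 CPM in overexpression and 57.8, 68.0 and 65.9 CPM in control replicates 1 to 3. Overexpression held both the highest and the lowest library, and the fold of 0.991 had a 95% interval of 0.815 to 1.205 (edgeR adjusted p = 0.986). Leaving out each library gave folds of 0.932 to 1.08, on both sides of 1, the highest without overexpression replicate 2. Abcg1 (ENSMUSG00000024030), which passes cholesterol on to formed particles, was at 75.2, 73.2 and 72.0 CPM in overexpression and 76.8, 83.0 and 75.7 CPM in control replicates 1 to 3. These groups did not overlap, by a gap of 0.575 CPM, and the fold was 0.936 (95% interval 0.859 to 1.02, edgeR adjusted p = 0.642), or 0.919 to 0.963 with 1 library left out. Counting error alone would give a coefficient of variation of 1.98 to 2.39% for Abca1, and the observed one was 16.6% in overexpression and 8.38% in control libraries. For Abcg1 counting error was 1.79 to 2.08% and the observed variation 2.15% and 4.997%.

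Soat1 (ENSMUSG00000026600), the enzyme that esterifies cholesterol for storage, was at 57.8, 54.0 and 58.9 CPM in overexpression and 51.0, 52.4 and 51.7 CPM in control replicates 1 to 3. It was the 1 gene of the 9 whose overexpression libraries all lay above the control libraries, by 1.58 CPM. Overexpression stood at 1.10 times control (95% interval 1.01 to 1.199), and the edgeR adjusted p was 0.488 (unadjusted p = 0.0308). After a correction for GC content, an alternative added after seeing the data, its log2 fold change was 0.092 in place of 0.14. With 1 library left out its fold was 1.08 to 1.13. Plin2 (ENSMUSG00000028494), the coat protein of lipid droplets, was at 5.70, 4.27 and 4.97 CPM in overexpression and 4.98, 4.97 and 4.79 CPM in control replicates 1 to 3. The control libraries lay between the highest and the lowest overexpression library, and the fold of 1.01 had a 95% interval of 0.816 to 1.26 (edgeR adjusted p = 0.985). Without overexpression replicate 1, the library with the highest sum of choroid plexus markers, the fold of Plin2 was 0.939, and without overexpression replicate 2 it was 1.08. With 146 to 191 counts of Plin2 per library, counting error alone gives a coefficient of variation of 7.24 to 8.28%, more than the 2.25% seen among control libraries.

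Trem2 (ENSMUSG00000023992), a lipid-sensing receptor of microglia, was at 10.5, 8.71 and 12.5 CPM in overexpression and 11.4, 11.4 and 15.3 CPM in control replicates 1 to 3. The groups overlapped, with overexpression replicate 3 above control replicates 1 and 2. The fold was 0.833 (95% interval 0.665 to 1.04), at an edgeR adjusted p of 0.628. Control replicate 3 set much of this value, since without it the fold was 0.927, and without overexpression replicate 3 it was 0.759. The interval does not show that Trem2 was alike in the 2 groups.

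Tyrobp (ENSMUSG00000030579), the adaptor that carries the TREM2 signal into the cell, had the fold farthest from 1 among the 9 genes. It was at 5.94, 5.26 and 8.02 CPM in overexpression and 7.63, 10.5 and 9.70 CPM in control replicates 1 to 3. The groups overlapped only in that overexpression replicate 3 lay above control replicate 1. Its fold was 0.690 with a 95% interval of 0.539 to 0.884. The edgeR adjusted p was 0.385 (unadjusted p = 0.00671), and 0.0101 without a filter on low counts. Without the filter edgeR called 304 of 35633 genes, beside 9 of 19354 with it. Leave-one-out folds ran from 0.604 without overexpression replicate 3 to 0.752 without overexpression replicate 2. Trem2 counts were 1.77, 1.66 and 1.55 times those of Tyrobp in overexpression and 1.49, 1.08 and 1.58 times in control replicates 1 to 3, so this ratio overlapped between the groups too.

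Beside these 2 genes, the 15 microglia markers, led by Csf1r, summed to 448 to 531 CPM in overexpression and 477 to 524 CPM in control libraries, with overlap. Of these 15 markers 4 had a fold above 1 and 11 below, with a median of -0.028 on the log2 scale and 0 past the threshold. Trem2 amounted to 2.21, 1.94 and 2.34% of this sum in overexpression and 2.39, 2.26 and 2.92% in control replicates 1 to 3. Tyrobp amounted to 1.25, 1.17 and 1.51% against 1.599, 2.09 and 1.85%, so that, set against the markers, its groups did not overlap, with a ratio of means of 0.710. The 10 border macrophage markers, whose cells also carry Tyrobp, summed to 33.5 to 41.5 CPM in overexpression and 31.4 to 38.1 CPM in control libraries, with 6 above a fold of 1 and 4 below.

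**Figure D3:**
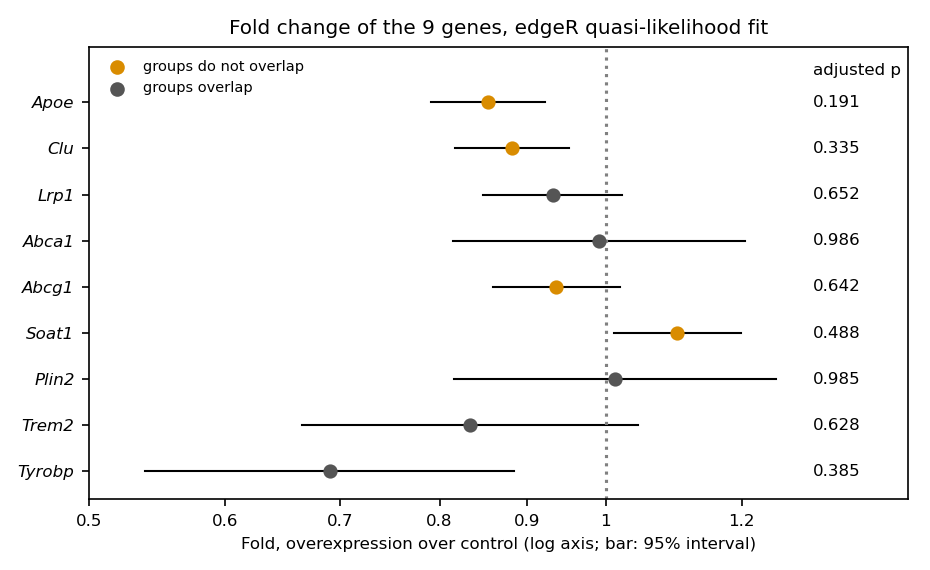
Fold of each of the 9 genes, overexpression over control (points, log axis), with 95% intervals from the edgeR quasi-likelihood fit (n = 3 per group) and the adjusted p over all genes at the right. Orange points are genes whose groups do not overlap (Apoe, Clu, Abcg1, Soat1); the intervals of Apoe, Clu and Tyrobp lie below 1, that of Soat1 above 1, and 0 adjusted p-values are under 0.05.

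Per length of transcript (CPM per kb of the principal transcripts) the control levels ran in the order Apoe at 1083, Clu at 444, Lrp1 at 49.9, Tyrobp at 16.5, Abcg1 at 13.5, Trem2 at 11.7, Soat1 at 9.15, Abca1 at 6.23 and Plin2 at 2.60 CPM per kb. The 2 particle proteins thus stood far above the enzymes, transporters and microglial genes. Tyrobp and Abcg1, and Abcg1 and Trem2, were neighbours whose control libraries overlapped, while the others in this order did not overlap. In overexpression libraries Abcg1 came first of the 5 middle genes at 12.6, before Tyrobp at 11.4, Soat1 at 10.1, Trem2 at 9.70 and Abca1 at 6.17 CPM per kb. Of these Abcg1, Tyrobp, Soat1 and Trem2 overlapped as neighbours.

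Genes with a pattern close to that of Apoe over the 6 libraries, by the same distance among 15554 genes of at least 1 CPM, included Babam1 (0.093) and Nsfl1c (0.105). Such a pattern was common, and 679 genes lay within 0.5 of Apoe. The nearest to Trem2 were Slc16a6 (0.097), Hdx (0.110) and Tubb2b, a neuronal tubulin (0.153), and 146 genes lay within 0.5. None of these 5 is a marker of microglia or astrocytes in the lists used here. Their folds were between 0.893 and 0.957.

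The surrounding pathway was described with 6 lists of 114 genes in all, of which 105 could be tested. Past the adjusted p of 0.05 there were 4 genes, all lower in overexpression, where 0.0207% of all genes tested were, and all in the list of lipid-laden and damage-associated phagocytes. They are also the only 4 of all 19354 genes tested that passed on the lower side. These 4 were written into that list with earlier results of these data known, so their count supports nothing about the pathway. On the higher side 0 of the 105 passed, where 0.0258% of all genes tested did. The other 5 lists had medians between -0.039 and 0.064 on the log2 scale, and 0 members past the threshold.

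**Figure D4:**
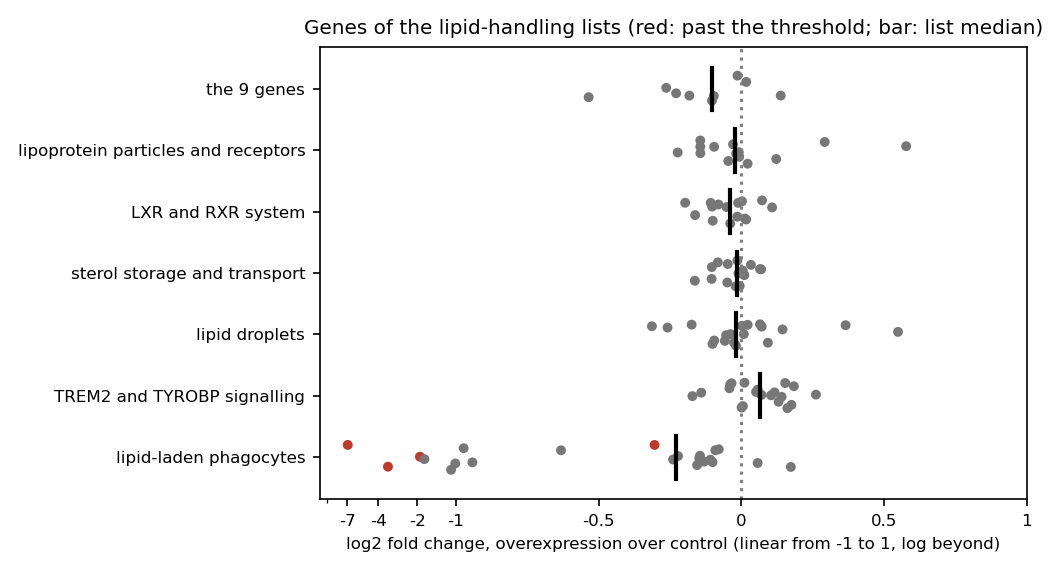
log2 fold change (overexpression over control) of each tested gene in the 9-gene set and in 6 lists of lipid-handling genes; the axis is linear from -1 to 1 and logarithmic beyond, black bars are list medians and red points passed an adjusted p of 0.05 in edgeR. The 4 red points are Cd5l, Atp6v0d2, Gpnmb and Fth1; the fitted value of Cd5l, with 1 count in overexpression, depends on edgeR's prior count.

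Other lipoprotein genes had 4 of 14 tested members above a fold of 1 and 10 below, and the list median was -0.023 on the log2 scale. Those with the smallest p were Apod, a lipid-binding apolipoprotein of glia, at 103 ± 5.35 against 94.6 ± 5.995 CPM, and Lcat, which esterifies cholesterol on particles, at 17.7 ± 1.09 against 19.5 ± 0.676 CPM (edgeR adjusted p = 0.584 and 0.616). Apoc1, the neighbour of Apoe on its chromosome, had 20 against 35 counts in all and was not tested. Among the LXR and RXR receptors, cofactors, targets and related transporters, 5 of 15 were above and 10 below, with a median of -0.039. Abca2, a lipid transporter of myelinating cells, was at 296 ± 22.3 against 331 ± 17.3 CPM, and Srebf1, a lipogenic factor under LXR control, at 44.3 ± 5.55 against 50.7 ± 2.67 CPM (edgeR adjusted p = 0.457 and 0.503).

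Sterol storage, hydroxylation and transport genes had 5 of 15 tested members above and 10 below, and the list median was -0.013 on the log2 scale. Npc1, which releases cholesterol from lysosomes, was at 67.0 ± 3.16 against 72.0 ± 2.62 CPM, and Cyp46a1, the neuronal enzyme that hydroxylates cholesterol for export, at 110.1 ± 4.18 against 118 ± 7.36 CPM (edgeR adjusted p = 0.625 and 0.628). Soat2, the paralogue of Soat1, had 20 against 12 counts in all and was not tested. Lipid droplet genes split into 9 above and 10 below of 19 tested, with a median of -0.019. Bscl2, which encodes the droplet assembly protein seipin, was at 51.3 ± 3.32 against 57.9 ± 3.49 CPM and Pnpla3, a droplet lipase, at 5.38 ± 0.149 against 6.44 ± 0.896 CPM (edgeR adjusted p = 0.459 and 0.592).

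Genes of TREM2 and TYROBP signalling had 15 of 20 tested members above a fold of 1 and 5 below, where 50.4% of all genes tested were above, and a list median of 0.064 on the log2 scale. Of the 20, 0 passed the threshold and 1 had an unadjusted p under 0.05. Adam10, a protease that sheds TREM2 from the surface, was at 112 ± 3.37 against 103 ± 1.43 CPM, with no overlap between groups, and Vav3, a signalling exchange factor, at 10.9 ± 1.93 against 9.10 ± 0.551 CPM (edgeR adjusted p = 0.519 and 0.557). The kinase gene Syk, which binds phosphorylated TYROBP, was at 6.15 ± 1.09 against 6.93 ± 0.635 CPM.

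In the list of lipid-laden and damage-associated phagocytes 20 of 22 genes were below a fold of 1 and 2 above, and the list median was -0.23 on the log2 scale. On the lower side 12 of the 22 had no overlap between groups, where 8.07% of all genes tested had none. The 4 genes that passed were written into the list with earlier results of these data known, so the count and the median support nothing about it. Gpnmb, a membrane glycoprotein of lipid-filled phagocytes, fell from 17.2 ± 4.12 to 4.60 ± 0.771 CPM, a fold of 0.267. Fth1, the ferritin heavy chain, fell from 1503 ± 46.0 to 1218 ± 8.34 CPM, and is uncertain because near-identical pseudogenes may share its reads. Cd5l, a lipid-binding protein of macrophages, had 1 count against 166, and Atp6v0d2, a proton pump subunit, 8 against 84. edgeR's adjusted p was 0.0123 for Gpnmb, 0.0453 for Fth1, 4.48e-04 for Cd5l and 0.0189 for Atp6v0d2. The count of 4 became 6 with DESeq2, 7 without a filter on low counts and 5 without control replicate 1. It became 2 among genes of at least 1 CPM in 3 libraries and when replicate 2 or 3 of either group was left out. Cd5l passed in all 15 refits of the list, and Gpnmb in all except the one without overexpression replicate 3, where Cd5l and Lyz2 passed. These refits reuse the same libraries. Cd5l and Atp6v0d2 met the default filter on low counts only through the control libraries, where they are high. The p-values and refits of these genes thus add no support. With the replicate number as a block 4 genes passed, with Itgax in the place of Fth1.

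**Figure D5:**
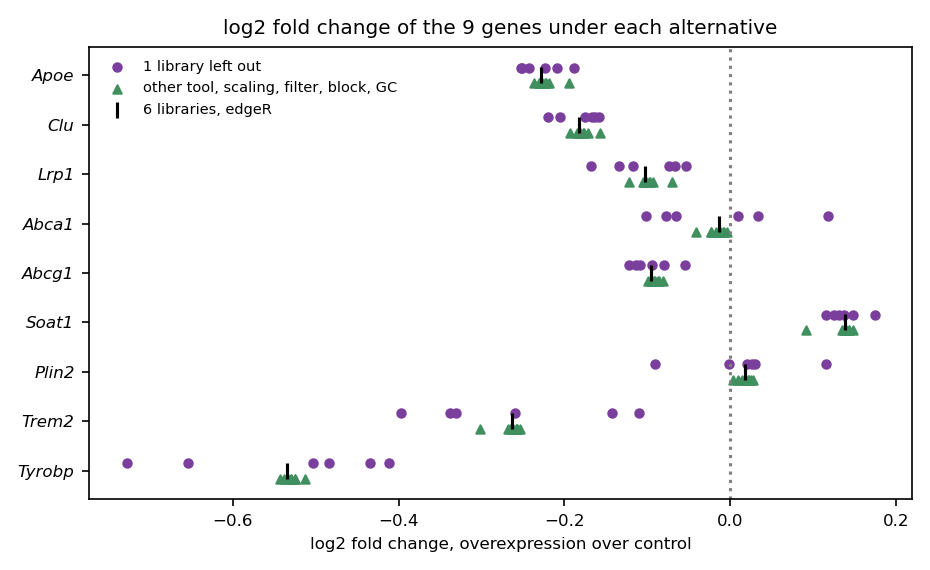
log2 fold change of the 9 genes (overexpression over control) with all 6 libraries in edgeR (black bar), with 1 library left out (purple points) and under other tools, scalings, filters, a replicate block or a GC correction (green triangles). Apoe stays between -0.25 and -0.19 and Clu between -0.22 and -0.16, Trem2 ranges from -0.40 to -0.11, and Abca1 and Plin2 lie on both sides of 0.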

How the data were processed

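RNA of 6 ventral hippocampus samples, 3 labelled NEGR1 overexpression and 3 NEGR1 control, was extracted with Trizol and made into poly(A), strand-marked (dUTP) libraries, per the labels' protocols. The authors deposited raw counts, as whole numbers, for each Ensembl identifier; all per-sample columns were used (0 left out). The submitters' processing notes name featureCounts 2.0.3, STAR 2.7.10 and Trimmomatic 0.36, and both mm10 and GRCm39, without saying what each was used for. The strand setting, the annotation and the handling of shared reads are not stated in the labels.

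Groups came from the labels. The 9 genes, the pathway and marker lists and the tests were chosen with earlier results of these data known. Counts were fitted with edgeR 4.0.16's quasi-likelihood test (robust, TMM factors, default filter, group as the only term) in R 4.3.3, with Benjamini-Hochberg adjustment over all 19354 genes tested; intervals are 95% intervals of the fit. The fit was also run on simulated counts with the same spread for every gene. The 9 genes differed in spread, so that run does not show how the fit does on them. Transcript lengths and GC content came from GENCODE M21. Pattern likeness is the root mean square distance of log2 CPM scaled to mean 0 and SD 1 over 6 libraries. Named genes are Negr1, the 9 genes, genes past the threshold or else the 2 with the smallest p in each pathway list, and the 3 nearest patterns to Apoe and Trem2, of which 1 is not reported here; Gfap, Syk and genes named for their absence from the test (Apoc1, Soat2) were added after their values were seen. Alternatives were other scalings, DESeq2 1.42.0, limma 3.58.1 voom with sample weights, other filters, an adjusted p of 0.1, a replicate block, leaving out each library, and a GC correction added after seeing the data. The depth, 30726110 to 38108394 counts per library, gave 146 counts or more of each of the 9 genes in every library. Libraries of a group differed by more than sampling noise, with a chi-square per degree of freedom of 4.28 to 10.9.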

Additional observations from a re-analysis of the deposited data

How the results depend on the processing

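The number of genes past the threshold, 9 of 19354, became 107 with DESeq2 and 304 of 35633 without a filter on low counts. It was 5 with at least 1 CPM in 3 libraries, 19 at an adjusted p of 0.1 and 26 with the replicate number as a block. With 1 library left out it ranged from 2 to 63. The cause was not tested. Of 135 refits of the 9 genes, 127 kept the direction and the side of the threshold. All 9 failed the threshold in the edgeR fit of all libraries, so the same side means failing again. The count thus does not show that a difference is stable. Apoe passed with DESeq2 (log2 fold change -0.23) and without a filter (-0.22), and Tyrobp without a filter (-0.53). Leaving out overexpression replicate 2 (0.12), control replicate 2 (0.033) or control replicate 3 (0.00905) changed the sign of Abca1, and leaving out overexpression replicate 1 (-0.090) or control replicate 3 (-0.0012) that of Plin2. With 1 library left out, log2 fold changes were -0.25 to -0.19 for Apoe, -0.40 to -0.11 for Trem2, -0.73 to -0.41 for Tyrobp, -0.10 to 0.12 for Abca1, -0.12 to -0.054 for Abcg1, -0.22 to -0.16 for Clu, -0.17 to -0.053 for Lrp1, 0.12 to 0.17 for Soat1 and -0.090 to 0.12 for Plin2. The ratio of group means was 0.815 to 0.932 for Trem2 over microglia markers and 0.828 to 0.890 for Apoe over astrocyte markers with 1 library left out, and 0.867 and 0.895 with the geometric mean of the markers in place of their sum. The replicate block changed no call among the 9 genes, where Apoe was at -0.23 with an adjusted p of 0.222. Nothing in the labels pairs the mice, and same-numbered libraries correlated across genes at 0.057, 0.023 and 0.049 in their deviations from the group means, with overexpression replicates 2 and 3 closer to another number than to their own. With 3 mice per group the 95% intervals of the fold were 0.665 to 1.04 for Trem2, 0.815 to 1.205 for Abca1 and 0.816 to 1.26 for Plin2. Counting error alone would give a coefficient of variation of 4.63 to 5.79% for Trem2, where 17.7 and 17.8% were observed.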

Other observations

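Single markers of the cells that carry these genes were picked out after their values were seen. Fcrls, a surface receptor of resident microglia, averaged 17.3 ± 0.582 CPM in overexpression against 22.5 ± 0.831 CPM (SD, n = 3), with groups that did not overlap and an edgeR adjusted p of 0.117. It was the 1 microglia marker of 15 without overlap, and Csf1r, Tmem119, P2ry12 and Olfml3 had folds above 1. Groups that did not overlap were seen for 15.1% of all genes tested, 8.07% on the lower side and 7.07% on the higher side. The phagocyte genes Itgax, an integrin subunit, and Cd68, a lysosomal glycoprotein, averaged 1.197 ± 0.488 against 4.07 ± 0.994 CPM and 7.14 ± 0.809 against 11.1 ± 0.497 CPM, each with an edgeR adjusted p of 0.0862 and groups that did not overlap. The border macrophage genes Mrc1, a mannose receptor, and Cd163, a haemoglobin scavenger receptor, had higher means in overexpression: Mrc1 averaged 5.89 ± 0.759 against 4.37 ± 0.31 CPM and Cd163 3.55 ± 0.558 against 2.44 ± 0.309 CPM, with edgeR adjusted p-values of 0.412 and 0.419 and no overlap. Ms4a7 of the same list averaged 0.405 ± 0.0212 against 0.689 ± 0.148 CPM, also with no overlap and an edgeR adjusted p of 0.514, and over the 10 border macrophage markers 6 were above a fold of 1 and 4 below. None of these 6 genes passed the threshold of 0.05 in the edgeR fit of all 6 libraries with the default filter. Fcrls, Itgax and Cd68 passed in DESeq2 and in edgeR without a filter, and Itgax also with the replicate block and without control replicate 1.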
